A study of Mus musculus with 46 samples.

Results

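The genes described here are 3 muscle actins (Acta1, Acta2 and Actc1), 4 sarcomeric myosin light chains (Myl2, Myl3, Myl4 and Myl7) and the cardiac light chain kinase Mylk3. They were taken by symbol, 8 of the 57010 genes in every count file, and all 8 passed the filter on low counts in heart. Acta1 and Mylk3 lie on mouse chromosome 8, Acta2 on 19, Actc1 on 2, Myl2 on 5, Myl3 on 9, and Myl4 and Myl7 on 11. The series measured total RNA in 46 libraries, 22 of heart and 24 of striatum, from adult mice, either wild type (WT) or homozygous for a variant of the hairless gene Hr (HrDR5/DR5, called mutant), with a 1-nucleotide deletion that by the series title impairs the regulation of Hr by thyroid hormone. Mice of each genotype were left untreated (euthyroid), ate food low in iodine with propylthiouracil (PTU), which blocks hormone synthesis, over 15 days, or then took thyroid hormone (TH) over 24 hours (PTU+TH). Each heart group held 4 libraries, except 3 each for untreated and PTU-treated mutant hearts. For 1 library, mutant PTU+TH replicate 1, the treatment label lacks the 24 hours, and it was kept in its group. The labels name the tissue as heart without a chamber and do not say whether libraries came from separate animals, so the p-values measure the spread between libraries, which may in part be technical.

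Actin thin filaments slide past myosin thick filaments to shorten the sarcomere. Adult ventricle is built mainly of cardiac alpha-actin (Actc1), whereas skeletal alpha-actin (Acta1) and smooth muscle alpha-actin (Acta2) are abundant in the developing heart, and Acta1 is also known to return in the stressed heart. Each myosin head carries an essential and a regulatory light chain. In ventricle these are Myl3 and Myl2, in atrium Myl4 and Myl7, and Mylk3 phosphorylates the regulatory chain Myl2 in cardiomyocytes. TH acts through nuclear receptors that bind DNA, often at paired copies of the letters AGGTCA, and is known to set the balance of cardiac myosin heavy chains.

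The promoters of Acta1 and Actc1 are shown because both genes fell with PTU and rose with TH in WT hearts. The sequences are the bases before the RefSeq start of each gene that lie in no annotated exon, 5′ to 3′ in the direction of transcription, from RefSeq on GRCm38.p6. Capitals mark the CArG box, the letters that serum response factor binds. The Acta1 sequence is chr8:123894776-123895025 and the Actc1 sequence chr2:114052888-114053125, both on the minus strand.
Acta1: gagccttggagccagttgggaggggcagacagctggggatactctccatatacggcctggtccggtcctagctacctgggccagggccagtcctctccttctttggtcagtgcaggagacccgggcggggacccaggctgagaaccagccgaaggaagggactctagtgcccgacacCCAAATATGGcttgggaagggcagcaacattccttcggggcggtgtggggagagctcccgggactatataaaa
Actc1: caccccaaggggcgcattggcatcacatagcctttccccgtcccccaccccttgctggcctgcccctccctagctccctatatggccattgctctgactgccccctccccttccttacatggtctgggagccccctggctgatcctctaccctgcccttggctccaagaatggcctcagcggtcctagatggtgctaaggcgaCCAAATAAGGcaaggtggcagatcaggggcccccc
A CArG box stood 64 bases before the start of Acta1 and 38 bases before that of Actc1. Windows of 250 bases before the start were searched on both strands, and 1.47% of 32851 promoters held a CArG box. The windows of Myl3 and Myl7 also held a CArG box each, and those of Acta2, Myl2, Myl4 and Mylk3 held none by this strict match. In the Acta2 window only the 33 bases farthest from the start come before an annotated exon. Searches of that window thus say little of the bases upstream of that exon. The letters CATTCC, to which TEAD factors bind, were found 41 bases before the start of Acta1 and not in the Actc1 window, against 12.6% of all promoters. The letters AGGTCA, present in 14.0% of promoters, and the paired form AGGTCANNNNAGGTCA, in 0.0152%, were found in no actin window. No match says only that these letters are not in these windows.

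Per kilobase of transcript, Myl2, Actc1 and Myl3 made up the upper tier of the 8 genes in untreated WT hearts. Levels are CPM, each library's counts relative to its TMM-adjusted total, with the SD over libraries, and log2 fold changes are given with their SE. In CPM per kilobase Myl2 stood at 12502 ± 3808, Actc1 at 7304 ± 882 and Myl3 at 6345 ± 2104 (SD, n = 4). The last pair differed by less than the SD of Myl3 and by more than that of Actc1. The second tier was Acta1 at 264 ± 271, Mylk3 at 158 ± 35.9 and Acta2 at 57.7 ± 15.9 CPM per kilobase (SD, n = 4). The large spread of Acta1 came from replicate 3, so its place beside Mylk3 is not fixed by these libraries. Myl4 and Myl7 were last, at 1.5 ± 0.648 and 1.04 ± 0.374 CPM per kilobase (SD, n = 4). After PTU+TH, Actc1 reached 11407 ± 1551 CPM per kilobase in WT hearts, level with Myl2 at 11336 ± 1516 (SD, n = 4). In striatum Actc1, Myl3 and Myl7 had a median of 0 CPM over 24 libraries, Mylk3 of 0.129 and Myl2 of 0.417. Acta2 had a striatal median of 17.7 CPM, Acta1 of 4.66 and Myl4 of 3.84, the last beside a median of 2.13 CPM over the 22 heart libraries (striatum was scaled separately).

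**Figure D1:**
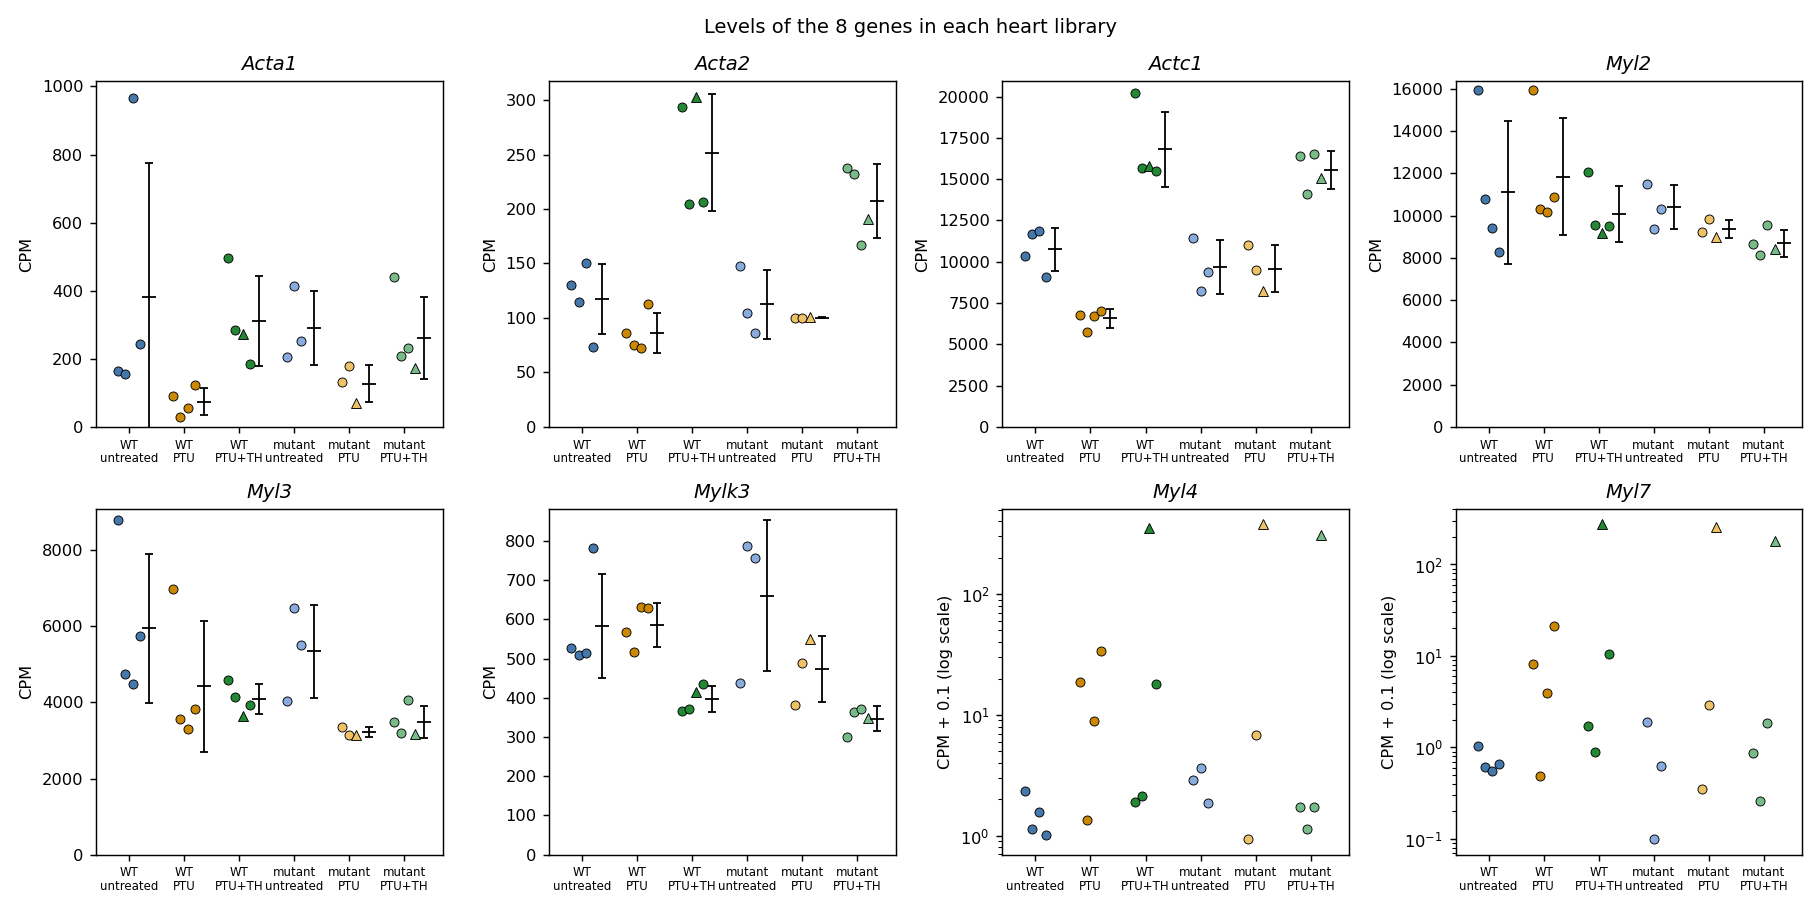
Level in CPM of each gene in the 22 heart libraries, by group; points are libraries, and the bar beside each group is its mean ± SD (the lower end for Acta1 in untreated WT hearts lies below 0 and is not drawn). Myl4 and Myl7 are on a log scale of CPM + 0.1 with no mean drawn, and triangles are the 3 libraries highest in them; Actc1 is lower in WT PTU hearts and higher in both PTU+TH groups.

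WT PTU+TH replicate 3, mutant PTU replicate 3 and mutant PTU+TH replicate 4 carried far more Myl4 and Myl7 RNA than the other 19. The atrial essential light chain Myl4 stood at 356 CPM in WT PTU+TH replicate 3, at 377 in mutant PTU replicate 3 and at 309.8 in mutant PTU+TH replicate 4. It ran from 0.841 to 34.0 CPM in the other 19 libraries, with a median of 1.79. The atrial regulatory light chain Myl7 stood at 273.9, 258.7 and 181.0 CPM in the same 3 libraries. In the other 19 Myl7 ran from 0 to 21.1 CPM, with a median of 0.790. The library at 0 counts was mutant untreated replicate 2, where 3 counts, the limit that a count of 0 allows, make 1.17 CPM. In RNA from whole tissue, fewer cells of a type and less RNA per cell cannot be told apart, for these genes and all others here.

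Other atrial markers moved with both light chains in these libraries. Of the 9 atrial markers on the list that are not among the 8 genes, Sln, Bmp10, Dkk3, Hamp and Nppa were each higher in all 3 libraries than in any of the 19 others. Sln, which encodes sarcolipin, a regulator of the calcium pump in atrium, stood at 20.3 to 73.7 CPM in the 3 libraries and at no more than 4.83 CPM in the others, with 0 counts in 13 of the 22. Bmp10, an atrial growth factor gene, ran from 0.803 to 112.0 CPM in the 3 libraries and to 0.191 CPM at most in the others. Nppa, which encodes atrial natriuretic peptide, ran from 789 to 1187 CPM against 94.6 to 319. Kcnj3, Stard10, Nr2f1 and Nr2f2, also markers of atrial cells, overlapped between the 3 libraries and the rest. Summed over the 9 markers, the ranges were 194 to 396 CPM in untreated, 207 to 415 in PTU and 247 to 1272 in PTU+TH WT hearts. In mutant hearts they were 229 to 322, 274 to 1678 and 250.4 to 1136 CPM in the same order.

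Lower Myl4 signal was also uneven within groups. In WT PTU hearts Myl4 stood at 18.6, 1.24, 8.86 and 34.0 CPM, all but replicate 2 above every untreated WT library, which ran from 0.907 to 2.26 CPM. WT PTU+TH replicate 4 had 18.0 CPM, and mutant PTU replicate 2 had 6.72. Among the 19 libraries without the 3 highest, log2 CPM of Myl4 and Myl7 rose together, with Pearson's r = 0.853 (permutation p = 2e-05, adjusted 2e-05) and Spearman's rho = 0.760 (permutation p = 0.0003, adjusted 0.00045). Without the 2 libraries farthest from the Myl4 median r was 0.734. Myl4 and Sln gave r = 0.933 (permutation p = 1e-05, the smallest that 100000 resamples can give; adjusted 2e-05) and rho = 0.808 (permutation p = 2e-05, adjusted 6e-05) over the same 19 libraries. Myl4 and Dkk3 gave r = 0.869 (permutation p = 2e-05, adjusted 2e-05) and rho = 0.656 (permutation p = 0.003, adjusted 0.003). Without the 2 farthest libraries r was 0.897 for Sln and 0.737 for Dkk3. Sln had 0 counts in 13 of the 19 libraries, so its r, rho and p rest largely on the few libraries with any Sln counts. These 3 relations were the only ones given a p-value. Sln, Dkk3 and Myl7 were also the genes nearest to Myl4 within groups over the 22 libraries (r = 0.979, 0.965 and 0.961). The 3 were not chosen without sight of the data, so their p-values are descriptive only. Kcnj3, Stard10, Nr2f1 and Nr2f2 were not tested against Myl4. The 3 relations pool libraries of all 6 groups, of which none holds 6 libraries, and the permutations moved libraries across groups.

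**Figure D2:**
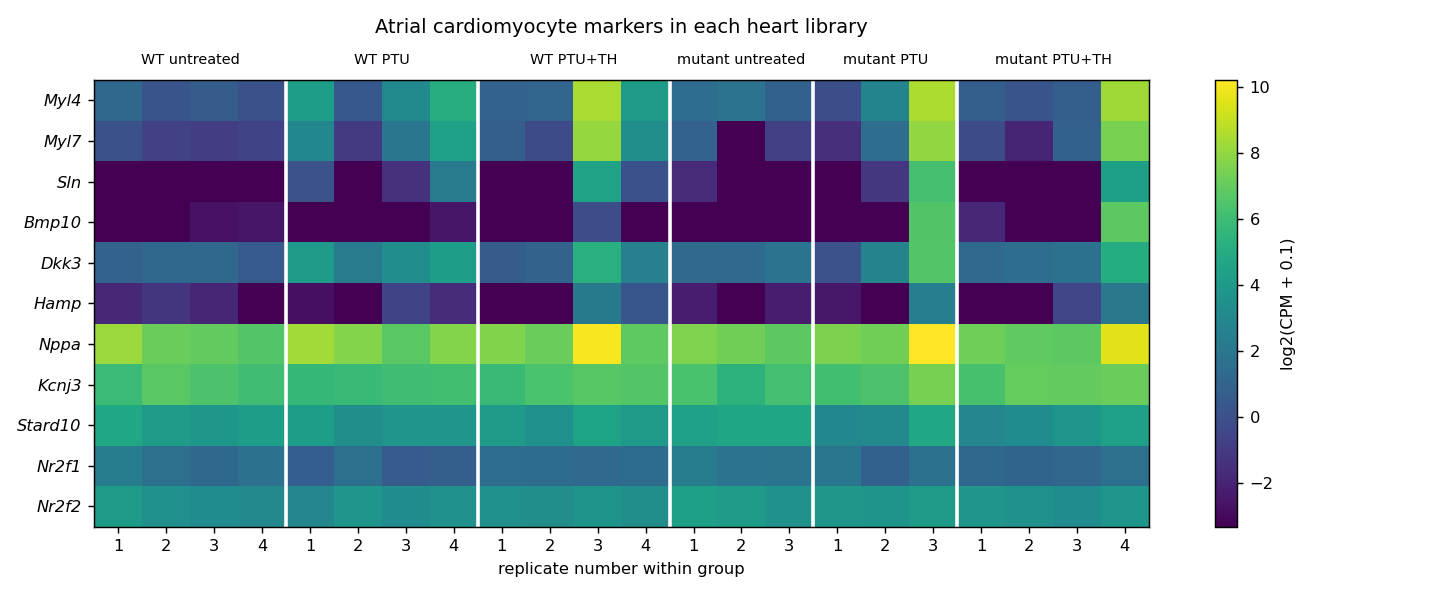
Levels of 11 atrial cardiomyocyte markers as log2(CPM + 0.1), colour scale, in the 22 heart libraries (columns, by group and replicate number). Myl4, Myl7, Sln, Bmp10, Dkk3, Hamp and Nppa are brightest in WT PTU+TH replicate 3, mutant PTU replicate 3 and mutant PTU+TH replicate 4, while Nr2f1 and Nr2f2 are not.

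Neither atrial light chain was called in any of the 11 comparisons made. Calls rest on edgeR's quasi-likelihood test of 14156 genes in the 22 heart libraries, with a threshold of 0.05 on the p adjusted by Benjamini and Hochberg's method. The largest Myl7 difference was between PTU+TH and untreated WT hearts, a log2 fold change of 6.88 ± 2.33 (SE; adjusted p = 0.12), and that of Myl4 was 6.06 ± 1.88 (adjusted p = 0.13). Without WT PTU+TH replicate 3 these were 2.81 (adjusted p = 0.688) and 2.37 (adjusted p = 0.69). With no filter on low counts both differences passed the threshold. DESeq2 gave no adjusted p for either of them, so its counts of the 8 called may rest on fewer than 8 genes. Whether atrial tissue in these libraries sets the levels of the other 6 genes was not tested. Without the 3 libraries, 8 of their 11 calls passed. The adjusted p was then 0.0139 for Acta1 and 0.0362 for Actc1 with PTU in WT hearts. For PTU+TH against PTU in WT hearts it was 0.0229 for Acta1, 0.000602 for Acta2 and 0.000127 for Actc1. For PTU+TH against untreated mutant hearts it was 0.0312 for Acta2, 0.0408 for Actc1 and 0.0177 for Mylk3. The 3 calls that did not pass without them are given with their genes.

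The library totals were 3.27 M to 19.53 M gene counts in heart, the lowest in mutant untreated replicate 2 and the next 8.235 M. In that library 23.9% of reads fell in no annotated feature, against 2.40% to 5.63% in the others. Hr itself stood at 16.3, 16.2, 15.4 and 15.6 CPM in untreated WT hearts and at 5.33, 3.13 and 18.8 in untreated mutant hearts, where replicate 3 lay above all WT libraries. Without that library Actc1 and Mylk3 kept their calls for PTU+TH against untreated mutant hearts and Acta2 did not. With PTU Hr ran from 1.37 to 3.68 CPM in WT and from 1.37 to 3.37 CPM in mutant hearts. After PTU+TH Hr ran from 69.4 to 80.6 CPM in WT and from 12.4 to 20.1 CPM in mutant hearts. Myh6, the TH-responsive alpha myosin heavy chain gene, stood at 21.2, 69.8, 102 and 488 CPM in WT PTU hearts and at 13714, 4875 and 7473 CPM in mutant PTU hearts. The PTU groups of the genotypes did not overlap in this gene, and the part of that in the values below was not tested.

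Actc1, the main actin of the adult heart, fell with PTU and rose with TH in WT hearts. It stood at 10368, 11684, 11893 and 9093 CPM in untreated WT hearts, a mean of 10759 ± 1299.9 (SD, n = 4). PTU hearts stood at 6767, 5768, 6694 and 7044 CPM, a mean of 6568 ± 554 (SD, n = 4). PTU+TH hearts stood at 20224, 15677, 15822 and 15486 CPM, a mean of 16802 ± 2285 (SD, n = 4). Every PTU library lay below every untreated one, and every PTU+TH library above both. The log2 fold change was -0.71 ± 0.17 (adjusted p = 0.013) with PTU, 1.36 ± 0.17 (adjusted p = 8.46e-06) for PTU+TH against PTU and 0.64 ± 0.17 (adjusted p = 0.0474) for PTU+TH against untreated hearts. The PTU change missed the threshold without WT PTU replicate 2 (adjusted p = 0.0556), with no filter on low counts (0.142) and with only the groups compared (0.129). The difference between PTU+TH and untreated hearts missed it when any 1 of the 8 libraries was left out, with adjusted p-values from 0.0649 to 0.123, and without the 3 libraries high in Myl4 and Myl7 (0.67, adjusted p = 0.165).

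In mutant hearts Actc1 was called for PTU+TH against untreated hearts only. It stood at 11439, 8220.1 and 9382 CPM in untreated and 11040.2, 9516 and 8206 CPM in PTU hearts, with means of 9680.3 ± 1630.2 and 9587 ± 1419 (SD, n = 3 each). PTU+TH libraries stood at 16408, 14128, 16538 and 15098 CPM, a mean of 15543 ± 1146 (SD, n = 4). The untreated and PTU libraries overlapped, and all PTU+TH libraries lay above both. The log2 fold change of PTU+TH was 0.68 ± 0.18 (adjusted p = 0.0126) against untreated and 0.70 ± 0.18 (adjusted p = 0.133) against PTU hearts. The first missed the threshold without mutant untreated replicate 2 (adjusted p = 0.0716) and the second passed it in DESeq2 (adjusted p = 0.00132).

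All 3 PTU mutant libraries lay above all 4 WT ones in Actc1, a log2 difference between genotypes of 0.55 ± 0.18 (adjusted p = 0.12). The genotype difference was 0.70 ± 0.26 (adjusted p = 0.194) in the PTU response and -0.66 ± 0.25 (adjusted p = 0.674) in the TH response. None of the 3 passed the threshold in edgeR. DESeq2 gave an adjusted p of 0.0122 for the PTU hearts and of 0.0498 for the PTU response. The tools thus differed on both calls.

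Acta1, skeletal alpha-actin, also fell with PTU and rose with TH in WT hearts, with more spread. Untreated WT hearts stood at 163, 155, 967 and 244 CPM, PTU hearts at 90.6, 28.7, 56.0 and 122 CPM and PTU+TH hearts at 497, 284, 274 and 185 CPM. All PTU libraries lay below all untreated and all PTU+TH libraries. The log2 fold change was -2.36 ± 0.51 (adjusted p = 0.00855) with PTU and 2.06 ± 0.51 (adjusted p = 0.0106) for PTU+TH against PTU. Replicate 3 of the untreated WT hearts, at 967.0 CPM, was far above its group. Without it the PTU change was -1.33 (adjusted p = 0.0707) and no longer called, nor was it with only the groups compared (adjusted p = 0.105).

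In mutant hearts Acta1 stood at 206, 413 and 253 CPM untreated, 131, 178 and 70.8 with PTU and 439.6, 207, 230.3 and 172 with PTU+TH. PTU libraries lay below untreated ones without overlap and overlapped the PTU+TH libraries. Neither the PTU difference of -1.20 ± 0.58 (adjusted p = 0.169) nor the PTU+TH difference of 1.05 ± 0.55 (adjusted p = 0.795) passed the test. The genotype difference in response was 1.17 ± 0.77 (adjusted p = 0.464) for PTU, which became 0.15 without WT untreated replicate 3, and -1.01 ± 0.74 (adjusted p = 1) for TH. Some markers of skeletal muscle also rose with TH in WT hearts. Of 12 listed markers 7 were tested, and 3 rose with PTU+TH against PTU, beside 11.4% of all genes called. Named after their values were seen, the 3 were Atp2a1, a calcium pump gene (1.69 ± 0.41, adjusted p = 0.00519), Myl1, a fast essential light chain (1.23 ± 0.35, adjusted p = 0.0248), and Tnni2, fast troponin I (1.37 ± 0.43, adjusted p = 0.038). Atp2a1 ran only from 0.252 to 1.98 CPM over the heart libraries and Tnni2 from 0.341 to 3.77, where 3 counts make 0.138 to 1.17 CPM. The other 4 markers tested were not called. The 12 listed markers summed to 27.7 to 51.4 CPM in untreated, 16.6 to 51.8 in PTU and 23.5 to 68.6 in PTU+TH WT hearts, with Tnnc2 and Pvalb at 0 counts in 8 of 22 libraries each. In mutant hearts the sums were 24.4 to 33.2, 21.9 to 40.5 and 28.9 to 57.1 CPM in the same order. Their part in the Acta1 result was not tested.

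Acta2, smooth muscle alpha-actin, rose with TH in both genotypes and was higher than in untreated hearts. Untreated WT hearts stood at 131, 115, 150.2 and 73.8 CPM, PTU hearts at 85.8, 74.8, 72.8 and 113 CPM and PTU+TH hearts at 293, 204, 303 and 206 CPM. All PTU+TH libraries lay above all others of WT, while untreated and PTU libraries overlapped. The log2 fold change was 1.54 ± 0.21 (adjusted p = 3.2e-05) against PTU and 1.10 ± 0.21 (adjusted p = 0.00718) against untreated hearts, whereas the PTU difference of -0.44 ± 0.21 (adjusted p = 0.277) did not pass. Without the 3 libraries high in Myl4 and Myl7 the difference from untreated hearts was 1.00 (adjusted p = 0.0692).

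Mutant hearts showed the same direction for Acta2. They stood at 147, 104 and 85.9 CPM untreated, 100.1, 99.6 and 100.4 with PTU and 238, 232, 167 and 191 with PTU+TH. All 4 PTU+TH libraries lay above all 6 others. The log2 fold change was 0.88 ± 0.23 (adjusted p = 0.0124) against untreated and 1.05 ± 0.23 (adjusted p = 0.0497) against PTU hearts. The latter stood at the threshold and was lost when any 1 of the 7 libraries was left out (adjusted p from 0.0515 to 0.299) and without the 3 libraries high in Myl4 and Myl7 (adjusted p = 0.476). The former was lost without mutant untreated replicate 2 (adjusted p = 0.0698) or replicate 3 (adjusted p = 0.0764). The genotype difference was -0.49 ± 0.32 (adjusted p = 1) in the TH response and 0.27 ± 0.33 (adjusted p = 0.721) in the PTU response, neither past the threshold.

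Other smooth muscle markers that were called did not all go in the direction of Acta2. Of the 12 listed with pericyte markers, 2 rose with PTU+TH against PTU in WT hearts, beside 11.4% of all genes called. The 2 were Acta2 itself and Synpo2, an actin-bundling protein gene (0.89 ± 0.21, adjusted p = 0.0073, named after its values were seen). The 11 other than Acta2 summed to 815 to 1093 CPM in untreated, 813 to 1093 in PTU and 979.6 to 1046 in PTU+TH WT hearts, and none was at 0 in any heart library. In mutant hearts they summed to 1088 to 1329, 972 to 1050.1 and 961 to 1020.2 CPM in the same order. Against untreated mutant hearts, PTU+TH left 5 of the 12 lower and 2 higher, Acta2 among the higher, beside 22.0% of all genes called. The 5 lower were Myh11, smooth muscle myosin (-1.61 ± 0.44, adjusted p = 0.0124), Lmod1, Mustn1, Kcnj8 and Tagln, chosen here after their values were seen. Beside 11.4% of all genes called in WT and 0.410% in mutant hearts, none of 8 fibroblast and myofibroblast markers was called for PTU+TH against PTU. These summed to 754 to 988 CPM in WT PTU and 719 to 851 CPM in WT PTU+TH hearts, and to 921 to 1018 and 782 to 959 CPM in mutant hearts, with none at 0.

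**Figure D3:**
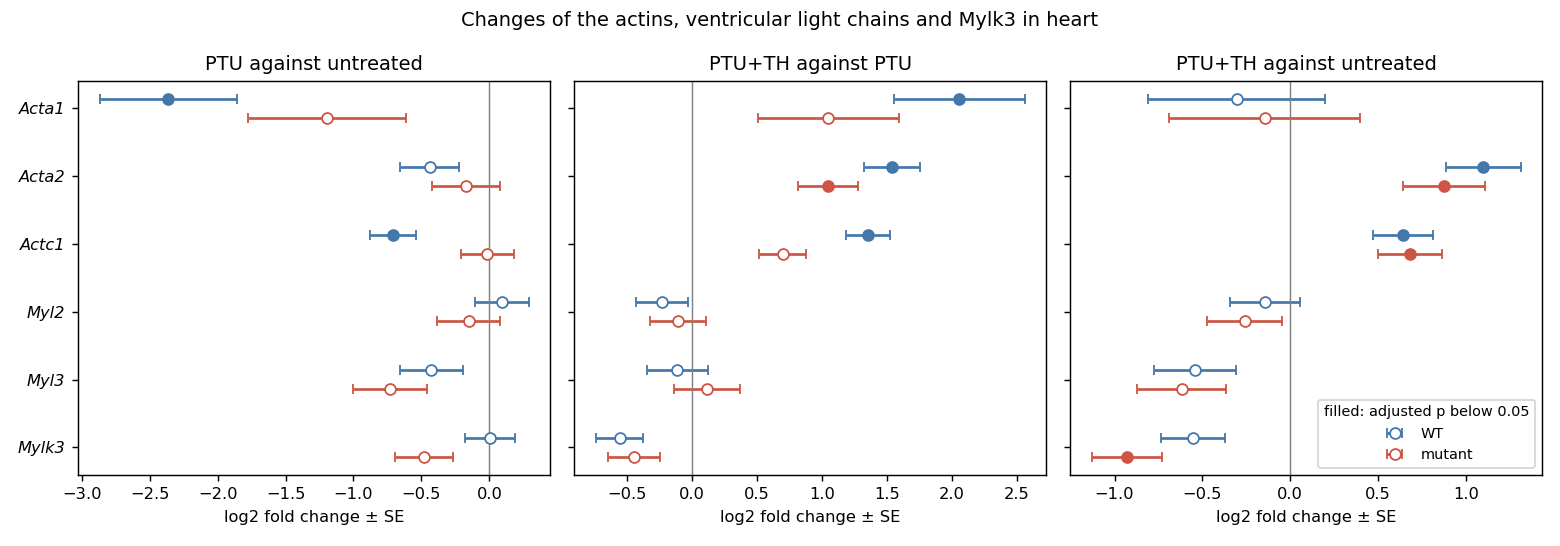
Log2 fold change ± SE of the 3 actins, both ventricular light chains and Mylk3 in WT (blue) and mutant (red) hearts for 3 contrasts; filled points passed an adjusted p of 0.05. The actins lie to the right for PTU+TH against PTU in both genotypes, while Myl2 and Myl3 lie near 0 in that contrast.

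The ventricular regulatory light chain Myl2 was called in none of the 11 comparisons. Its largest log2 fold change was -0.34, for mutant against WT PTU hearts (adjusted p = 0.427). There all mutant libraries lay below all WT ones, and the share of all genes so separated was not counted. Group means of Myl2 lay between 8691 and 11845 CPM. Untreated WT hearts stood at 15949.7, 10806, 9422 and 8278 CPM, PTU hearts at 15961, 10336, 10184 and 10900.0 CPM and PTU+TH hearts at 12085, 9542, 9178 and 9506 CPM. In each WT group replicate 1 was the highest. Over all genes WT PTU replicate 1 also stood apart. Its chi-square per gene against the other WT PTU libraries was 148 to 183, and theirs among themselves 8.37 to 15.9. The part of this in its Myl2 and Myl3 values was not tested. Untreated libraries were uneven as well, at 24.5 to 174 among WT and 109 to 269 among mutant hearts. Mitochondrially encoded genes held 17.7% of gene counts in WT untreated replicate 4, against 30.1% to 41.9% in the rest of its group. In mutant untreated replicate 3 they held 23.7%, against 44.2% and 46%. All comparisons with untreated hearts use these libraries. Mutant libraries ran from 8114 to 11494 CPM over all 3 treatments. The ventricular essential light chain Myl3 stood at 8789, 4756, 4493 and 5742 CPM in untreated, 6984, 3564, 3309 and 3828 in PTU and 4592, 4150.3, 3656 and 3941 in PTU+TH WT hearts. These groups overlapped, and the PTU difference of -0.43 ± 0.23 (adjusted p = 0.347) did not pass, except without WT PTU replicate 1 (-0.74, adjusted p = 0.0346).

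In mutant hearts Myl3 stood at 4036, 6485 and 5504 CPM untreated, 3366, 3146 and 3145 with PTU and 3483, 3204, 4064 and 3168 with PTU+TH. All PTU libraries lay below all untreated ones, but the difference of -0.73 ± 0.27 (adjusted p = 0.0712) did not pass in edgeR. It passed when mutant untreated replicate 1 was left out (-0.89; adjusted p = 0.0294) and in DESeq2 (adjusted p = 0.0371). The PTU+TH difference from untreated mutant hearts was -0.62 ± 0.25 (adjusted p = 0.0794), and it passed without the same library (adjusted p = 0.0352). Exons of Myl2 overlap those of Ccdc63 on the opposite strand by 60 bases and exons of Myl3 those of Pth1r by 95 bases, so a small share of their counts may belong to those genes. The 3 ventricular markers other than Myl2 summed to 64.4 to 76.0 CPM in untreated, 53.0 to 74.5 in PTU and 62.9 to 70.9 in PTU+TH WT hearts, and to 55.9 to 70.9, 64.7 to 80.3 and 54.5 to 71.5 CPM in mutant hearts. The 8 general cardiomyocyte markers summed to 28806 to 36655 CPM in untreated, 27879 to 32528 in PTU and 28780.1 to 29841 in PTU+TH WT hearts. In mutant hearts the cardiomyocyte sums were 26206 to 36368, 27883 to 30614 and 24849 to 25868 CPM. There 4 of the 8 were lower with PTU+TH than untreated, beside 22.0% of all genes called.

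Mylk3, the kinase of the ventricular regulatory light chain, was lowest after TH in both genotypes. It stood at 527, 509, 515 and 782 CPM in untreated, 568, 516, 631 and 629.9 in PTU and 367, 372, 415 and 434 in PTU+TH WT hearts. All WT PTU+TH libraries lay below all other WT libraries. The log2 fold change of -0.56 ± 0.18 against PTU hearts missed the threshold (adjusted p = 0.0512). It passed with a replicate block, a term for the replicate number (-0.56, adjusted p = 0.0229), and in DESeq2 (adjusted p = 0.0221). Whether the number marks a pairing is not settled. It also passed without mitochondrially encoded genes (0.0478), with only the groups compared (0.0425) and with the covariate for reads in no feature (0.0431), and stood at 0.125 without the 3 libraries high in Myl4 and Myl7. Mutant hearts stood at 438, 788 and 756 CPM untreated, 382, 488 and 549 with PTU and 300.3, 364, 372 and 349 with PTU+TH. All PTU+TH libraries lay below all others of the mutant. Against untreated mutant hearts the log2 fold change was -0.93 ± 0.20 (adjusted p = 0.00317), and it passed under every alternative run. The steps from untreated to PTU, -0.48 ± 0.21 (adjusted p = 0.125), and from PTU to PTU+TH, -0.45 ± 0.20 (adjusted p = 0.626), did not pass, except the first without mutant untreated replicate 1 (adjusted p = 0.0174). The difference between PTU+TH and untreated WT hearts was -0.55 ± 0.18 (adjusted p = 0.13).

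Over the 8 genes, 2 fell with PTU in WT hearts, beside 4.90% of all genes tested that were called. With PTU+TH against PTU in WT hearts 3 rose, beside 11.4% of all genes, and against untreated WT hearts 2 rose, beside 2.03%. In mutant hearts none was called with PTU, beside 13.8% of all genes. With 1 library left out at a time, the 1952 genes behind that share became 85 (without mutant untreated replicate 2) to 3163 (without mutant untreated replicate 1). Of the 8 genes 4 had an unadjusted p below 0.05, beside 31.5% of all genes, and DESeq2 called 1. With PTU+TH against PTU in mutant hearts 1 rose, beside 0.410% of all genes, and against untreated mutant hearts 2 rose and 1 fell, beside 22.0%. With 1 library left out the 58 genes behind the first share became 15 (without mutant PTU replicate 3) to 106 (without mutant PTU replicate 1). The 3118 behind the second became 1173 (without mutant untreated replicate 2) to 3902 (without mutant untreated replicate 1). In WT hearts the 694 genes called with PTU became 483 (without WT PTU replicate 3) to 1069 (without WT PTU replicate 1), and the 288 for PTU+TH against untreated became 121 (without WT PTU+TH replicate 3) to 302. The median log2 fold change of the 8 was 1.45 for PTU+TH against PTU in WT hearts and 0.00249 in mutant hearts, against medians of -0.0255 and 0.00295 over all genes. For PTU against untreated hearts the medians of the 8 were -0.21 in WT and -0.161 in mutant hearts, against 0.0104 and -0.0146 over all genes. The medians include Myl4 and Myl7, which were uneven within groups as described above. Comparisons that share a group share its libraries: PTU against untreated and PTU+TH against PTU both use the PTU hearts.

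Between genotypes none of the 8 was called by edgeR at any treatment. In untreated hearts 0 of the 8 had an unadjusted p below 0.05, beside 5.81% of all genes, and DESeq2 called 0. By the adjusted p of edgeR 0% of all genes were called there. In PTU hearts 1 of the 8 had an unadjusted p below 0.05, beside 17.5% of all genes, and DESeq2 called Actc1. By the adjusted p of edgeR 2.20% of all genes were called there. In PTU+TH hearts the counts were 0 unadjusted, beside 12.5% of all genes, and 0 in DESeq2. By the adjusted p of edgeR 0.0141% of all genes were called there. When the PTU responses of both genotypes were compared 0.579% of all genes were called, and 0.290% when the TH responses were. None of the 8 was called in either. In each, 1 of the 8 had an unadjusted p below 0.05, beside 16% of all genes for PTU and 4.46% for TH. DESeq2 called Actc1 for the PTU response and 0 of the 8 for the TH response. Leaving out 1 library moved the count of genes called in untreated hearts from 0 to as many as 21 (without mutant untreated replicate 1). In PTU hearts it moved the 311 genes called to as few as 78 (without mutant PTU replicate 1). The 82 for the PTU response became 1 (without mutant PTU replicate 1) to 721 (without mutant untreated replicate 1), and the 41 for the TH response became 11 (without mutant PTU replicate 1) to 68 (without WT PTU replicate 4). A p that misses the threshold does not show that the genotypes were alike.

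The make-up of the actin pool was compared as shares of counts per kilobase. Acta1 made up 3.31% ± 2.95 of Acta1 and Actc1 together in untreated, 1.11% ± 0.543 in PTU and 1.80% ± 0.508 in PTU+TH WT hearts (SD, n = 4 each). Without replicate 3 of the untreated WT hearts, at 7.65%, the PTU difference of -2.20 percentage points was -0.752. Acta2 made up 0.748% ± 0.145 of the 3 actins in untreated, 0.931% ± 0.146 in PTU and 1.05% ± 0.197 in PTU+TH WT hearts. Actc1 thus made up the bulk of the 3 in every group. In mutant hearts the Acta1 share was 3.12% ± 1.58 untreated, 1.31% ± 0.511 with PTU (n = 3 each) and 1.67% ± 0.674 with PTU+TH (n = 4). Their Acta2 share was 0.805% ± 0.143, 0.751% ± 0.114 and 0.945% ± 0.186 in the same order.

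For the light chains, Myl4 made up 0.0157% to 0.0325% of Myl4 and Myl3 in untreated WT hearts and 8.81% in WT PTU+TH replicate 3. In mutant PTU replicate 3 its share was 10.6% and in mutant PTU+TH replicate 4 it was 8.86%. Myl7 made up 4.30%, 4.15% and 3.14% of Myl7 and Myl2 in the same 3 libraries, and 0.00716% to 0.0102% in untreated WT hearts. In an exact two-sided permutation test of each share in 9 pairwise comparisons, 36 in all, the lowest Benjamini-Hochberg adjusted p was 0.257. With these group sizes no adjusted p under the threshold could be reached over 36 tests whatever the data, so the adjusted values say nothing of whether the shares differed. Before adjustment 4 reached 0.0286, the smallest p that 4 libraries against 4 allow. These were Acta2 for PTU+TH against untreated WT hearts (0.307 percentage points), Myl7 for the same groups (1.12 points), and Myl4 for PTU (0.336 points) and PTU+TH (2.31 points) against untreated WT hearts. With 3 libraries against 3 the smallest possible p was 0.1 and with 3 against 4 it was 0.0571. The actins are close in sequence, and reads with several alignments, 23.1% to 35.9% of heart reads, were not counted to a gene. How many actin reads this removed was not measured, so the shares and levels of single actins are uncertain.

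Of 49 other genes of the thin filament and light chain pathways, on 5 lists, 47 were tested. In WT hearts PTU lowered 3 of the 47 and raised 1, beside 4.90% of all genes called, with a median log2 fold change of -0.07. The 3 lower were Myl12a, a non-muscle regulatory light chain (-1.51 ± 0.22, adjusted p = 0.00015), Tpm1, the main cardiac tropomyosin (-1.07 ± 0.22, adjusted p = 0.00426), and Lmod3, a leiomodin that nucleates actin filaments (-0.76 ± 0.15, adjusted p = 0.00351). The higher gene was Hand2, a cardiac transcription factor (0.77 ± 0.20, adjusted p = 0.0246). With PTU+TH against PTU 7 of the 47 rose and 1 fell, beside 11.4% of all genes, with a median of 0.26. Those with the largest change were Mylk4, a kinase of the light chain kinase family (2.11 ± 0.31, adjusted p = 7.84e-05), Myl1, Myl12a (1.19 ± 0.22, adjusted p = 0.00065) and, lower, Hand2 (-1.09 ± 0.20, adjusted p = 0.00065). Against untreated WT hearts only Mylk4 of the 47 was called (1.54 ± 0.31, adjusted p = 0.0101), beside 2.03% of all genes.

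In mutant hearts PTU raised 7 of the 47 and lowered 5, with a median of -0.02, beside 13.8% of all genes called, a share that varied with the libraries used as given above. The largest changes were those of Mylk4 (1.35 ± 0.36, adjusted p = 0.0227), Tpm1 (-1.27 ± 0.25, adjusted p = 0.00756), Mylpf, a fast regulatory light chain (-1.21 ± 0.39, adjusted p = 0.0498), and Nebl, the nebulette gene (1.06 ± 0.25, adjusted p = 0.0132). With PTU+TH against PTU 0 of the 47 were called by edgeR in mutant hearts, beside 0.410% of all genes. Against untreated mutant hearts 9 were higher and 7 lower, beside 22.0%. The largest of these were Mylpf (-1.94 ± 0.39, adjusted p = 0.00178), Mylk4 (1.75 ± 0.34, adjusted p = 0.00238), Ppp1r12c, a myosin phosphatase subunit (-1.01 ± 0.27, adjusted p = 0.0126), and Nebl (0.99 ± 0.23, adjusted p = 0.00705). Between genotypes, 2.20% of all genes were called in PTU hearts. Of the 47, PTU hearts of mutants were higher in Mylk4 (1.98 ± 0.33, adjusted p = 0.00205), Myl12a (0.88 ± 0.23, adjusted p = 0.0448) and Lmod3 (0.72 ± 0.16, adjusted p = 0.0197) and lower in Hand2 (-0.91 ± 0.22, adjusted p = 0.0307). None of the 47 was called between genotypes in untreated or PTU+TH hearts, beside 0% and 0.0141% of all genes. None was called for a genotype difference in the PTU or TH response, beside 0.579% and 0.290%. With shares this low, 0 of 47 says little about these genes. Exons of Myl12a and Hand2 overlap genes on the opposite strand, Myom1 and Hand2os1, and no source used here states the strand setting of the counting.

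**Figure D4:**
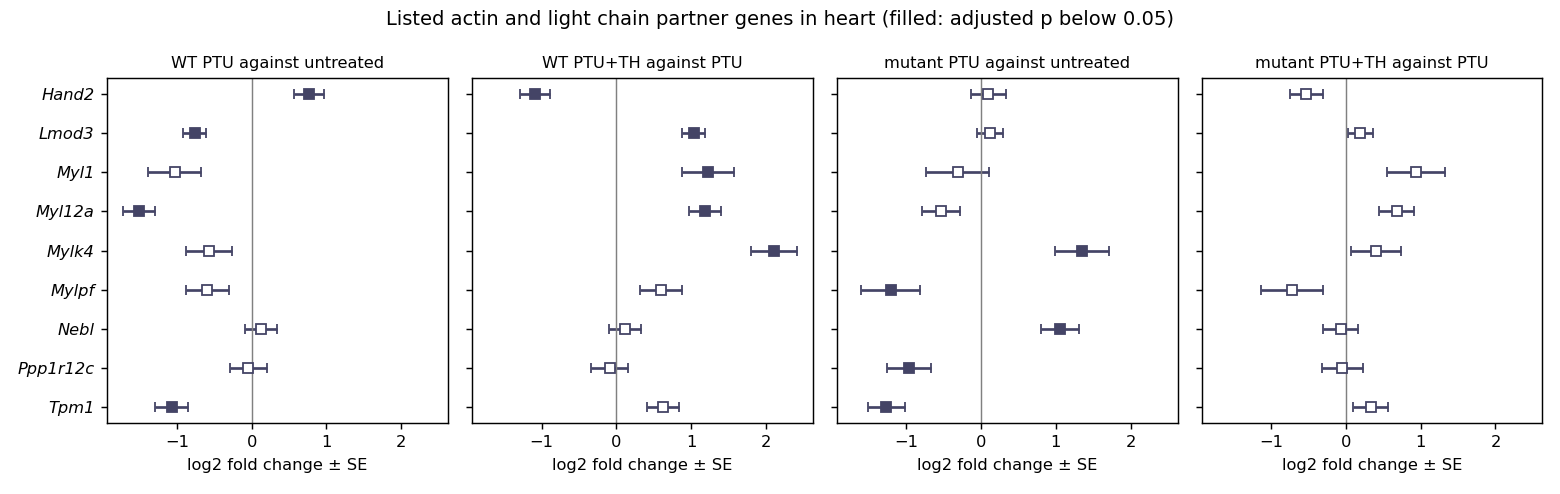
Log2 fold change ± SE of the 9 partner genes named in the text, in 4 contrasts; filled squares passed an adjusted p of 0.05. Lmod3, Myl12a and Mylk4 are filled to the right in WT hearts for PTU+TH against PTU, and no gene is filled in mutant hearts for that contrast.

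By list, the 3 other actins (Actb, Actg1 and Actg2) had 1 call, for PTU+TH against PTU in WT hearts, beside 11.4% of all genes. It was Actb (0.75 ± 0.22, adjusted p = 0.0311, named after its values were seen). Of 16 actin filament partners, PTU lowered 2 in WT hearts, beside 4.90% of all genes, and PTU+TH against PTU raised 2, beside 11.4%. In mutant hearts PTU raised 3 of the 16 and lowered 2, beside 13.8% of all genes. Of 7 other light chains tested, PTU lowered 1 in each genotype, beside 4.90% of all genes in WT and 13.8% in mutant hearts. PTU+TH against PTU raised 2 of the 7 in WT hearts, beside 11.4%. Of 9 light chain kinases, calmodulins and phosphatase subunits tested, 1 rose for PTU+TH against PTU in WT hearts, beside 11.4% of all genes, and 0 in mutant hearts. In mutant hearts 2 of the 9 were higher and 2 lower with PTU, beside 13.8% of all genes. For PTU+TH against untreated mutant hearts 3 of the 9 were higher and 2 lower, beside 22.0%. Of 12 regulators of actin genes, 1 rose and 1 fell for PTU+TH against PTU in WT hearts and 0 were called in mutant hearts, beside 11.4% and 0.410% of all genes. With PTU 2 of the 12 rose in mutant hearts, and 2 were higher for PTU+TH against untreated mutant hearts, beside 13.8% and 22.0% of all genes.

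The genes whose log2 CPM was most like each of the 8 over the 22 heart libraries are given as a description. These r values pool groups and share libraries and depth. For Actc1 they were Prss55 (r = 0.972), Tuba8 (0.960) and Htra1 (0.947). For Acta2 they were Actc1 itself (0.897), Tubb6 (0.886) and 1810055G02Rik (0.886), and for Acta1 Noa1 (0.852), Serpinh1 (0.837) and then Ankrd35. For Myl2 they were Eif3k (0.949), Fth1 (0.941) and Vps28 (0.936), for Myl3 Aurkaip1 (0.981), Dap3 (0.969) and Msrb2 (0.968), and for Mylk3 Nub1 (0.931), Acad12 (0.929) and Pygb (0.922). Myl4 and Myl7 had the same nearest gene, Sln (0.977 and 0.962), then each other (0.959) and Tmem163 (0.948 and 0.951). Between Mylk3 and the actins r was -0.755 for Actc1, -0.765 for Acta2 and -0.199 for Acta1.

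Within groups, after each group's mean was taken off, other genes were nearest for several of the 8. Acta1 was nearest to Serpinh1 (r = 0.851), a collagen chaperone gene, then Zfp180 (0.814) and Nup62 (0.779). Acta2 was nearest to Ntsr2 (0.819), Mfap4 (0.769) and mt-Nd3 (0.756), and Actc1 to Fxyd5 (0.847), Farsb (0.847) and Dcakd (0.845). Myl2 was nearest to Cst3 (0.972), Cisd1 (0.967) and Eif3k (0.964), Myl3 to Dap3 (0.975), Pebp1 (0.971) and Park7 (0.970), and Mylk3 to Lars (0.925), Agtrap (0.904) and Dcaf8 (0.893). Myl4 was nearest to Sln (0.979), Dkk3 (0.965) and Myl7 (0.961), and Myl7 to Sln (0.969), Tmem163 (0.961) and Myl4 (0.961). Between Acta2 and Actc1 r was 0.533 on this scale, against 0.897 with the group means left in.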

How the data were processed

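RNA of heart and striatum went into libraries made with a Lexogen kit (CORRALL V2 in the labels' spelling), 1 ug per library. The authors deposited raw counts for 57010 genes, 1 library per file. Bowtie2, HTSeq and GRCm39 are named in the submitters' processing notes; their versions, the annotation, strand setting and any use of molecular identifiers are not stated there. Lines for reads assigned to no gene, 27.7% to 48.0% of heart reads, were left out, and reads with several alignments are not in the gene counts.

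Heart counts were fitted in edgeR 4.0.16 (R 4.3.3) with 1 coefficient per group over 22 libraries, filterByExpr (minimum count 10, 14156 genes), TMM scaling and two-sided quasi-likelihood tests in 11 comparisons, each adjusted over its 14156 genes (Benjamini-Hochberg, threshold 0.05). The fit was tested on simulated counts. Alternatives were DESeq2 1.42.0, its size factors, no filter, only the groups compared, a replicate block, no mitochondrially encoded genes, each library left out, and 3 chosen after seeing the data: without the 3 libraries high in Myl4 and Myl7, the share of reads in no feature as a covariate, and lengths from all annotated exons. Striatum was scaled alone and described only.

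Same-numbered libraries were checked for pairing by the correlation of their deviations from group means over all genes. Every pair exceeded 0.1 for PTU against untreated WT hearts (0.104 to 0.598) and PTU+TH against PTU WT hearts (0.121 to 0.282). The number was taken there as a possible pairing, from the data and not the labels. For PTU+TH against untreated WT hearts the pairs gave 0.0858 to 0.234 and missed this rule, so a pairing over the WT groups is not settled. The block was fitted to all 22 heart libraries, mutant ones included. No libraries agreed within sampling noise. Lengths are of the principal GENCODE M21 transcript (GRCm38), a build other than that of the files. The 8 genes and all lists were chosen with earlier results of these data known. Named beside the 8 were up to 4 called pathway genes per comparison, by size of change, and the 3 nearest genes per member. Limits from counts cover counting error only, and 3 or 4 libraries per group limit precision.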

Additional observations from a re-analysis of the deposited data

Results flagged for a closer look

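In 14 of the 48 sets of 4 libraries examined, 8 genes and 4 shares in 4 groups, 1 library stood apart from the other 3. The mark was a gap to the next library over Dixon's critical share of the set's range. That share would flag about 1 in 20 independent sets of normally distributed values. CPM need not be normal and the shares reuse the same genes, so 14 of 48 cannot be weighed against that rate. Of the 14, 8 concern the atrial light chains. Myl4 stood at 355.5 CPM in WT PTU+TH replicate 3, with the next library at 18.0, and at 309.8 CPM in mutant PTU+TH replicate 4, with the next at 1.62. Myl7 stood at 273.9 CPM, with the next at 10.3, and at 181.0 CPM, with the next at 1.77, in the same libraries. The Myl4 share of Myl4 and Myl3 was 8.81% and 8.86% there, with the next libraries at 0.452% and 0.0463%. The Myl7 share of Myl7 and Myl2 was 4.30% and 3.14%, with the next at 0.163% and 0.0278%.

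Of the other 6, 4 were in replicate 1 of a WT group. Myl2 stood at 15960.8 CPM in WT PTU replicate 1, with the next at 10900.0, and at 12085.1 CPM in WT PTU+TH replicate 1, with the next at 9541.8. Myl3 stood at 6984.1 CPM in WT PTU replicate 1, with the next at 3828.3. Actc1 stood at 20223.8 CPM in WT PTU+TH replicate 1, with the next at 15822.5. Acta1 stood at 967.0 CPM in WT untreated replicate 3, with the next at 244.2, and Mylk3 at 781.9 CPM in WT untreated replicate 4, with the next at 527.0.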

How the results depend on the processing

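The alternatives were compared with the reported fit for 32 of the members' fold changes, and none of these reversed. They were of Acta1, Acta2, Actc1, Myl3, Mylk3 and, in 1 comparison each, Myl4 and Myl7. The rest, among them all of Myl2 and the PTU change of Actc1 in mutant hearts, were not examined for reversal. The rises of Acta1, Acta2 and Actc1 for PTU+TH against PTU in WT hearts and the fall of Mylk3 for PTU+TH against untreated mutant hearts stayed past the threshold in all alternatives run. With only the groups compared, the count of members called was 0 for PTU and 1 for PTU+TH against untreated WT hearts, and 2 for PTU+TH against PTU in mutant hearts. With no filter on low counts it was 5 for PTU+TH against PTU in WT hearts and 3 in mutant hearts, 3 for PTU in mutant hearts, 2 between PTU genotypes, and 3 and 2 for the genotype difference in PTU and TH response. DESeq2 called 1 for PTU and 2 for PTU+TH against PTU in mutant hearts, 1 between PTU genotypes and 1 for the PTU response. Without the 3 libraries high in Myl4 and Myl7 the count was 0 for PTU+TH against untreated WT hearts and 0 for PTU+TH against PTU in mutant hearts, where DESeq2's size factors in edgeR and the covariate also gave 0. Leaving out each library gave 1 to 3 for PTU (WT), 1 for PTU+TH against untreated (WT), 0 to 2 for PTU (mutant), 0 for PTU+TH against PTU (mutant) and 1 to 4 for PTU+TH against untreated (mutant), the 1 without mutant untreated replicate 2. Actc1 for PTU+TH against untreated hearts also lost its call with no filter and with only the groups compared, in WT and in mutant hearts. Of the values of named partner genes, leaving out a library kept 117 calls and ended 35, and the other alternatives kept 143 and ended 25. The causes were not tested.

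With the replicate block the count of members called was 4 in place of 3 for PTU+TH against PTU in WT hearts, through Mylk3, as it was with no mitochondrially encoded genes, only the groups compared, the covariate and DESeq2, and the block changed no other call of the 8 genes. In the other pairwise comparisons the numbers missed the rule used for a pairing. Outside the comparisons that met it, the block left the counts of members as they were. It ended 1 call among the named partner genes there, Mylpf for PTU in mutant hearts. The share tests could pass under no alternative, the block included, since the group sizes do not allow it, and their count of 0 says nothing of stability.

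Over all genes the counts called moved by more than 1.5 times in several settings. They ran from 212 to 1069 (694 as reported) for PTU and from 88 to 575 (288) for PTU+TH against untreated WT hearts. In mutant hearts they ran from 30 to 3163 (1952) for PTU, 2 to 231 (58) for PTU+TH against PTU and 1173 to 3902 (3118) for PTU+TH against untreated. Between genotypes they ran from 0 to 127 (0) untreated, 11 to 550 (311) with PTU and 0 to 847 (2) with PTU+TH, and for the difference in response from 1 to 721 (82) for PTU and 11 to 136 (41) for TH. Mutant untreated replicate 2, at 3.27 M counts the shallowest library, limits low genes most.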
